A study of Mus musculus with 12 samples.

Results

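The acute phase and complement genes Saa3, Hp, C3, Cfp and Ptx3 were followed as 5 genes of the 28987 in the deposited table, taken by their symbol. The RNA came from cells sorted from the bone marrow (BM) and the peritoneum (PT) of mice of the FVB strain that were wild type (WT) or MRP8-Bcl2, a transgenic line in which human Bcl-2 is expressed from the regulatory regions of human MRP8, which are active in myeloid cells. All mice, in every group, had received 2 mL of thioglycollate into the peritoneal cavity, so no group is untreated. The labels give collection at 6 h and the study's methods at 4 or 8 h, and the age and sex of the mice are not stated in the sources used here. There were 4 groups of 3 libraries: BM WT (libraries 4, 5 and 6), PT WT (10, 11 and 12), BM MRP8-Bcl2 (1, 2 and 3) and PT MRP8-Bcl2 (7, 8 and 9). The methods name the sorted cells neutrophils, gated as CD11b-positive, F4/80-negative and GR1-high, whereas 1 field of the labels names macrophages. PT and BM cells came from the same mice, but the columns do not say which libraries share a mouse, so p-values measure the spread between libraries.

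Levels are given as TPM, reads per transcript length scaled to a fixed sum in each library, a unit that allows genes to be set side by side. The 8 neutrophil markers summed to between 188889 and 349107 TPM in BM WT and between 15172 and 55301 TPM in PT WT. Most of the BM WT sum was S100a8 and S100a9, with means of 117739 and 137963 TPM. Both were called lower in PT in both genotypes on the deposited scale, where 1.22% (WT) and 19.1% (MRP8-Bcl2) of all genes tested were. Ly6g, the antigen bound by the usual neutrophil antibody, stood at 588 to 1266 TPM in BM WT and at 13.1, 14.9 and 0 TPM in PT WT. In PT MRP8-Bcl2 it stood at 58.9 to 126 TPM (mean 81.7), and in BM MRP8-Bcl2 at 51.5 to 1225 TPM (mean 493). Averaged over genotypes, this defining marker was called lower in PT under all 5 scalings. By TPM it was lower in PT WT than in PT MRP8-Bcl2, but no gene was called higher in MRP8-Bcl2 than in WT in PT. Csf3r, the G-CSF receptor, stood at 183 to 1038 TPM in BM WT and at 1839 to 2478 TPM in PT WT. Cxcr2 and Itgam, of the same list, had means of 1282 and 672 TPM in BM WT and 1762 and 1176 TPM in PT WT. Averaged over genotypes, 1 of the 8 markers, Csf3r, was called higher and 3 were called lower, where 5.13% and 14.1% of all genes tested were. Reads on 108 genes whose transcripts hold 31 or more A or T bases in a row took 8.93% to 24.1% of TPM in BM libraries, 15.5% and 20.0% in libraries 7 and 12, and 50.8% to 65.6% in the other PT libraries. A gene's TPM is lower wherever that share is high. Mouse Bcl2 in library 9, labelled PT MRP8-Bcl2, was 0.695 TPM, inside the WT range, against 58.6 to 333 TPM in the other MRP8-Bcl2 libraries. The transgene is human and the table lists mouse genes, so the label could not be checked further.

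The acute phase response is the change in plasma proteins that follows injury or infection, driven in the liver by interleukin-6 and interleukin-1. Serum amyloid A proteins and haptoglobin are classical acute phase proteins. Neutrophils make some of these proteins themselves: haptoglobin, which binds free haemoglobin, and pentraxin 3, a soluble pattern recognition protein, are synthesised in marrow precursors and stored in specific granules. Complement is a cascade in which cleavage of C3 marks surfaces for uptake, and properdin, encoded by Cfp and released by neutrophils, stabilises the C3 convertase of the alternative pathway. Saa3 is a serum amyloid A made outside the liver in mice, by macrophages and other cells.

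The 5 genes lie on different chromosomes of GRCm38. Saa3 (ENSMUSG00000040026) spans chr7:46711998-46715700 and Hp (ENSMUSG00000031722) spans chr8:109575128-109579172. C3 (ENSMUSG00000024164) spans chr17:57203970-57228136 and Cfp (ENSMUSG00000001128) spans chrX:20925454-20931555, and all 4 are on the minus strand. Ptx3 (ENSMUSG00000027832) is on the plus strand at chr3:66219910-66225805. RefSeq promoters were at hand for 4 of the 5 genes, Hp being the exception. Those of Saa3, the gene that rose in PT, and of C3, which was not called, are shown as the 250 bases before the start site (GRCm38.p6, minus strand, chr7:46715677-46715926 and chr17:57228137-57228386), written 5′ to 3′. Capitals mark letters that match TTNNGNAA, the pattern of C/EBP factors, or GGG and CC with 5 bases between them, that of NF-kB, on either strand, and overlapping matches run together.
Saa3: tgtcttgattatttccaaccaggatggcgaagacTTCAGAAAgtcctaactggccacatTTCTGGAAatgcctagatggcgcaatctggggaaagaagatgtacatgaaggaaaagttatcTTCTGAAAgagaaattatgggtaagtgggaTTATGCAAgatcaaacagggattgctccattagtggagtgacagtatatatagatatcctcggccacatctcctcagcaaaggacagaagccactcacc
C3: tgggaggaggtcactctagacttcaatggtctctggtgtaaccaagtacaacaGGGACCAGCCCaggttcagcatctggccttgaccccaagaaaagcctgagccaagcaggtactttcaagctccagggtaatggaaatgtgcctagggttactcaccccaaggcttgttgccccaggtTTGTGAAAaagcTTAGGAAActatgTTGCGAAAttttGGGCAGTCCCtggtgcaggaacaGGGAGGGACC
The Saa3 window held 4 matches to the C/EBP letters, beginning at positions -216, -191, -129 and -99 from the start site, and none to the NF-kB letters. The C3 window held 3 matches to the C/EBP letters, at -70, -58 and -45, and forward matches to the NF-kB letters at -197, -33 and -10. The Ptx3 window held 1 match to the C/EBP letters, at -57, and the Cfp window held 1 to the NF-kB letters, on the reverse strand next to the start. Of 32851 promoters of the same length, 36.8% held the C/EBP letters and 45.8% the NF-kB letters, so such matches are common and describe these windows only.

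Saa3 was the gene of the 5 that was higher in PT. In BM WT it stood at 4.80, 4.24 and 3.29 TPM (4.11 ± 0.761, SD, n = 3). In PT WT it stood at 361, 622 and 36.8 TPM (340 ± 293, n = 3). Library 12 lay far below the other PT WT libraries, yet every PT WT library lay above every BM WT library. In BM MRP8-Bcl2 it stood at 0, 16.5 and 103 TPM (39.7 ± 55.1, n = 3), with an SD above the mean. In PT MRP8-Bcl2 it stood at 659, 240 and 227 TPM (375 ± 246, n = 3), again above every BM library of the genotype. The share of all genes whose sites separate in this way was not counted. By group mean the order was BM WT, BM MRP8-Bcl2, PT WT and PT MRP8-Bcl2, and the values of each neighbouring pair overlapped.

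**Figure D1:**
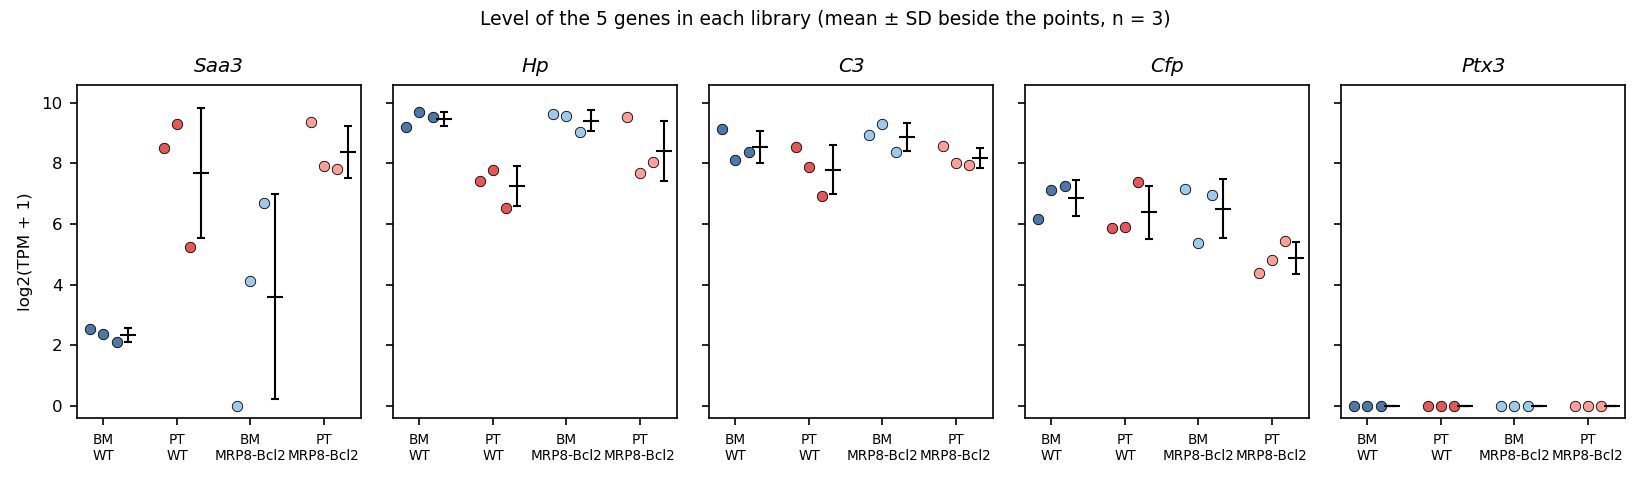
Level of Saa3, Hp, C3, Cfp and Ptx3, 1 panel a gene, as log2(TPM + 1) on the vertical axis and group on the horizontal axis. Each point is 1 library and the bar beside it the mean ± SD of 3 libraries. Saa3 is higher in PT in both genotypes, Hp is lower in PT WT, and Ptx3 is at 0 in all 12 libraries.

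Saa3 rose in PT against BM averaged over genotypes by 5.05 on the log2(TPM + 1) scale (SE 0.92, 95% interval 3.08 to 7.02, adjusted p = 0.00199). WT mice alone gave a change of 5.33 (SE 1.31, adjusted p = 0.0412), while MRP8-Bcl2 mice gave 4.76 (SE 1.31, adjusted p = 0.0206). Of all 13456 genes tested, 5.13% were called higher in the averaged comparison, 1.59% in WT and 2.31% in MRP8-Bcl2, and Saa3 was the only one of the 5 among them. The averaged call held under all 10 other settings and without any 1 of the 12 libraries, with changes of 4.14 to 5.82. The call in WT alone was less firm: it was lost under 6 of 10 other settings, with an adjusted p up to 0.142, and in 8 of 12 fits that left out a library (2, 4, 5, 6, 8, 9, 10 or 11), where the change was 4.53 to 5.43. In MRP8-Bcl2 the call was lost without library 1, where Saa3 was at 0 (2.96), and without library 7 (4.26).

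The depth behind the low values was small. From the steps between low TPM values, 1 read of Saa3 was worth 0.954 to 4.36 TPM, and the BM WT values came to an estimated 2, 1 and 3 reads. Those of PT WT came to 379, 486 and 33 reads. Pooled over libraries, the estimated reads gave a PT to BM ratio of 83.8 in WT (exact 95% interval 38.3 to 229, from 6 and 898 reads). In MRP8-Bcl2 they gave 10.96 (7.52 to 16.5, from 29 and 453 reads), and 24 of the 29 BM reads came from library 3. Without library 3 the ratio in MRP8-Bcl2 was 47.7 (20.3 to 148, from 5 and 453 reads), and without library 1 it was 6.20 (4.26 to 9.37). The ratio in WT was 53.9 (24.6 to 148) without library 11, and 70.2 to 120 without any other WT library. These intervals cover counting error only, and the fitted fold changes depend on the pseudocount where BM is this low. The 24 reads of library 3 (95% interval 65.9 to 153 TPM) lay above the 0 of library 1, whose 95% interval reaches 9.09 TPM. The 5 reads of library 2 gave an interval of 5.49 to 39.4 TPM, which reaches below that limit.

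Rank within a library does not depend on how TPM are scaled. Saa3 ranked between 85 and 208 of all genes by TPM in 5 PT libraries and 2905 in library 12. In BM it ranked between 6823 and 8329 in WT, 5143 in library 2 and 1086 in library 3. Library 3, the BM library with most Saa3, also had the highest summed level of the 12 macrophage markers, 624 TPM against 125 to 261 TPM in the other BM libraries. The fibronectin gene Fn1 gave 572 of the 624 TPM, and without it the markers summed to 52.3 TPM in library 3, inside the 17.8 to 194 TPM of the other BM libraries. The 6 monocyte markers summed to 2057 TPM in library 3 and to 439 to 1168 TPM in the other BM libraries. Library 12, the PT library with least Saa3, had the highest sum of the 8 mast cell and eosinophil markers, 683 TPM against 18.3 to 89.8 TPM in the other PT libraries, and 481 of the 683 TPM were Cpa3, a mast cell protease gene. The part of these cells in the Saa3 levels was not tested. In bulk RNA, more cells that hold a transcript and more of it per cell cannot be told apart.

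Hp went the other way. In BM WT it stood at 591, 820 and 734 TPM (715 ± 115, n = 3). In PT WT it stood at 170, 222 and 91.2 TPM (161 ± 65.7, n = 3), with every PT WT library below every BM WT library. How many of all genes separate in this way was not counted. In BM MRP8-Bcl2 it stood at 799, 760 and 520 TPM (693 ± 151, n = 3). In PT MRP8-Bcl2 it stood at 739, 203 and 261 TPM (401 ± 294, n = 3), where library 7 lay inside the BM range and the other two below it. By group mean the order was BM WT, BM MRP8-Bcl2, PT MRP8-Bcl2 and PT WT, and again each neighbouring pair overlapped. Hp ranked 58 to 171 of all genes in the BM libraries, so haptoglobin RNA was among the abundant transcripts of the marrow cells, and 151 to 1295 in PT.

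Averaged over genotypes, Hp fell by 1.61 on the log2(TPM + 1) scale (SE 0.38, 95% interval -2.41 to -0.81, adjusted p = 0.00882), in a comparison where 14.1% of all genes tested were called lower. In WT it fell by 2.22 (SE 0.53, adjusted p = 0.0367), where 1.22% of all genes were called lower. That call was lost under 5 of 10 other settings, with an adjusted p up to 0.0805, and in 7 of 12 fits that left out a library (2, 4, 5, 6, 10, 11 or 12), where the change was -2.50 to -1.86. In MRP8-Bcl2 the 95% interval of the change was -2.13 to 0.13 (SE 0.53, adjusted p = 0.184) and Hp was not among the 19.1% of genes called lower, a background that fell from 2567 to 1042 genes without library 3, to 1341 without library 2 and to 1607 without library 8. Without library 7 it was -1.56 (adjusted p = 0.0413). The averaged call held in each of the 12 fits that left out a library. It was lost when each library was centred on its median (-0.92, adjusted p = 0.185) and when the genes with a run of A or T were left out of the TPM total (-0.97, adjusted p = 0.0800). On the latter scale Hp stood at 841 to 1139 TPM in BM WT, at 380, 528 and 124 TPM in PT WT, and at 923, 556 and 800 TPM in PT MRP8-Bcl2. The scale also moved the split of all genes called in the averaged comparison, from 690 higher and 1891 lower to 1274 higher and 948 lower, and centring moved it to 1752 higher and 862 lower.

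**Figure D2:**
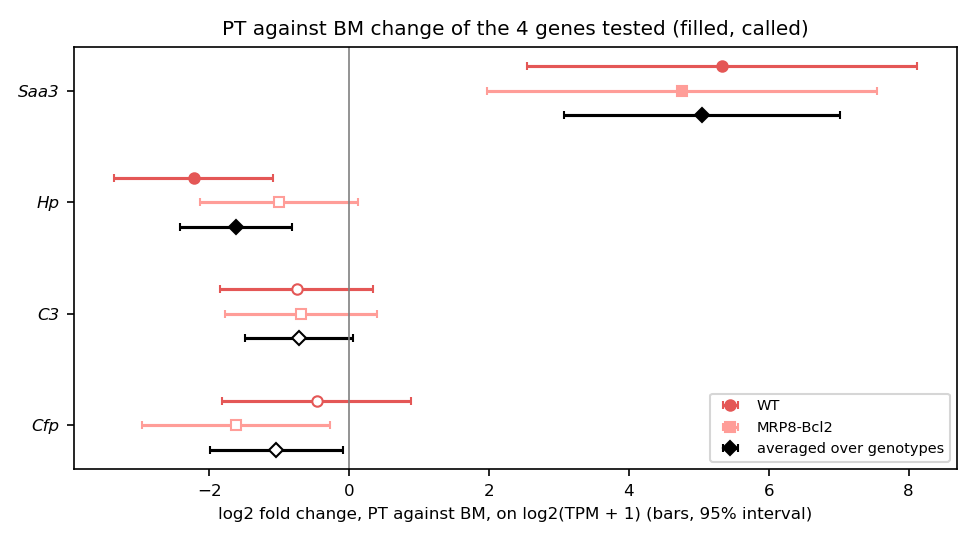
Change in PT against BM of the 4 genes tested, as the log2 fold change on log2(TPM + 1) on the horizontal axis, in WT, in MRP8-Bcl2 and averaged over genotypes. Bars are 95% intervals from the fit of 12 libraries and filled symbols are calls (adjusted p under 0.05 and at least 2-fold). Saa3 is called in all 3 comparisons and Hp in WT and in the average, while C3 and Cfp are called in none.

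The ratio of Saa3 to Hp within a library sets aside the scaling. It was 0.00811, 0.00518 and 0.00449 in BM WT and 2.12, 2.81 and 0.403 in PT WT. In BM MRP8-Bcl2 it was 0, 0.0217 and 0.197, and in PT MRP8-Bcl2 it was 0.892, 1.18 and 0.867. Every PT library lay above every BM library. The exact permutation test within genotype (2-sided, 6 PT against 6 BM libraries) gave p = 0.005, the smallest that its 400 relabellings allow, and 0.0075 adjusted over the 6 ratios examined. The ratios were chosen with these changes known, and Saa3 to Hp sets a gene called higher over a gene called lower. The p therefore adds no support to the calls. How many other gene pairs separate in this way was not counted. Saa3 to C3 gave the same p, with 1 overlap: library 3 of BM at 0.313 and library 12 of PT at 0.303.

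Hp was also set against Lcn2, which encodes the iron-carrier binding protein lipocalin 2 and, like Hp, is an acute phase and specific granule gene. Lcn2 fell by 4.21 averaged over genotypes (SE 0.42, adjusted p = 3.18e-05), more than Hp. The ratio of Hp to Lcn2 was 0.0522 to 0.194 in BM and 0.204 to 0.766 in PT, without overlap (exact permutation p = 0.005, adjusted 0.0075). The fall of Lcn2 was known when this ratio was chosen, so the test adds no separate support. Among the 10 specific granule genes, 9 were called lower in the averaged comparison, where 14.1% of all genes tested were. Their median was -3.56 beside -0.40 for all genes tested. The largest changes were those of the antimicrobial protein genes Camp (-7.17), Ngp (-6.99) and Ltf (-6.10), and of Chil3 (-5.74), a chitinase-like protein. Of the 9 calls, those of Olfm4 and Slpi were lost under the other 4 scalings.

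**Figure D3:**
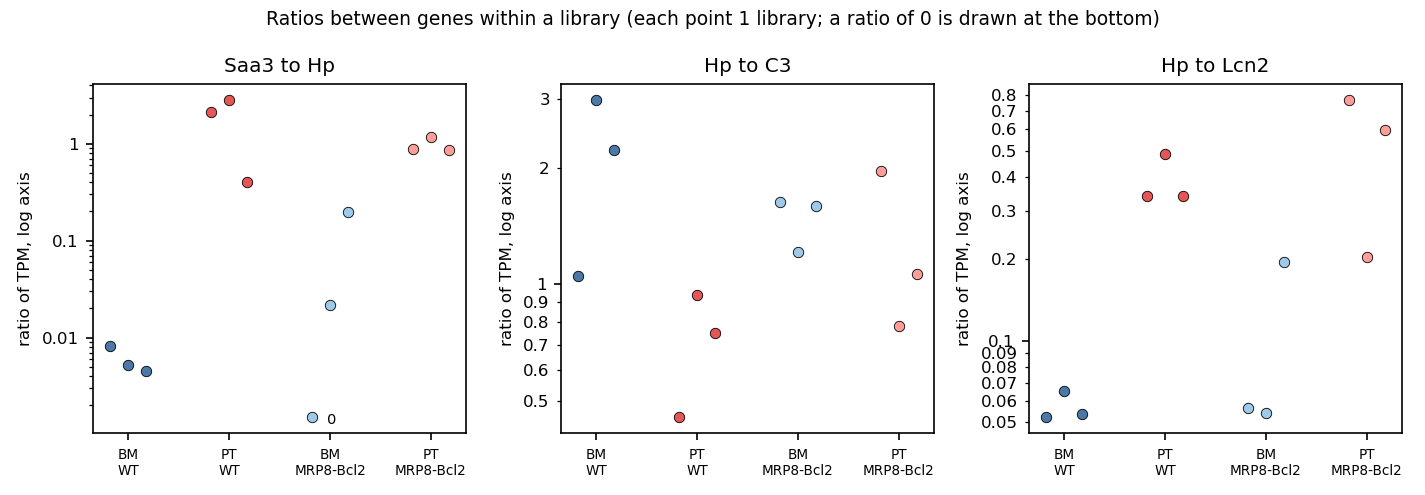
Ratios of TPM between 2 genes within each library, Saa3 to Hp, Hp to C3 and Hp to Lcn2, on log axes, by group. Each point is 1 library and the BM MRP8-Bcl2 library without Saa3 is drawn at the bottom and marked 0. The PT libraries lie above all BM libraries for Saa3 to Hp and for Hp to Lcn2, whereas the groups overlap for Hp to C3.

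C3 was abundant in both sites. In BM WT it stood at 563, 275 and 331 TPM (389 ± 152, n = 3) and in PT WT at 375, 235 and 121 TPM (244 ± 127, n = 3). In BM MRP8-Bcl2 it stood at 490, 628 and 328 TPM (482 ± 150, n = 3) and in PT MRP8-Bcl2 at 378, 260 and 246 TPM (295 ± 72.2, n = 3). The sites overlapped in both genotypes. The change in PT was -0.75 in WT (adjusted p = 0.500), -0.68 in MRP8-Bcl2 (adjusted p = 0.348) and -0.72 averaged (SE 0.36, 95% interval -1.49 to 0.05, adjusted p = 0.175). The interval holds both no change and a fall of more than 2-fold. Averaged, the change stayed between -0.91 and -0.03 under the alternatives. C3 rested on 1197 to 7076 estimated reads a library, so counting error was not what set its spread. The ratio of C3 to Lcn2 was 0.0220 to 0.122 in BM and 0.261 to 0.749 in PT, without overlap (exact permutation p = 0.005, adjusted 0.0075). Here too the fall of Lcn2 was known beforehand, so the test adds no separate support. The ratio of Hp to C3 was 1.05 to 2.98 in BM and 0.454 to 1.96 in PT (exact permutation p = 0.055, adjusted 0.066), so Hp and C3 were not told apart in their change by this test.

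Cfp stood at 71.0, 139 and 152 TPM in BM WT (121 ± 43.5, n = 3) and at 57.2, 58.9 and 168 TPM in PT WT (94.7 ± 63.6, n = 3). In BM MRP8-Bcl2 it stood at 141, 41.0 and 125 TPM (102 ± 53.6, n = 3) and in PT MRP8-Bcl2 at 20.2, 27.0 and 42.9 TPM (30.0 ± 11.6, n = 3). Library 12, the PT library with least Saa3, Hp and C3, had the most Cfp of all 12. The change in PT was -0.46 in WT (adjusted p = 0.770), -1.62 in MRP8-Bcl2 (95% interval -2.96 to -0.27, adjusted p = 0.0797) and -1.04 averaged (SE 0.45, adjusted p = 0.113). None of these was called. Within a library, Cfp was 0.0653 to 0.505 of C3 in BM and 0.0534 to 1.39 of C3 in PT (exact permutation p = 0.455, adjusted 0.455).

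Ptx3 was listed at 0 in all 12 libraries and was not tested. Of the 28987 genes in the table, 10382 were at 0 throughout. A read of Ptx3 would have been worth 0.158 to 0.741 TPM, so a count of 0 allows 0.473 to 2.22 TPM, depending on the library. Ptx3 RNA was thus not detectable at this depth in marrow or peritoneal cells. The sister genes Saa1 and Saa2, which encode the serum amyloid A proteins of the liver, and Apcs, another pentraxin, were listed at 0 throughout as well.

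The genotypes were compared for the same 5 genes, since the transgene was used to delay death of the neutrophils. No member was called in BM or in PT, where 0.0223% and 0.0297% of all genes tested were, nor in the difference of the PT change between genotypes, where 0.0149% were. In PT, Hp was higher in MRP8-Bcl2 by 1.16 (95% interval 0.03 to 2.30, adjusted p = 0.382) and overlapped the WT range by library 8. In PT, Cfp differed by -1.50 (95% interval -2.85 to -0.15, adjusted p = 0.350), beside a median of -0.67 for all genes tested. Under the 10 other settings it differed by -1.78 to -0.43. On the deposited scale its 3 MRP8-Bcl2 libraries all lay below the WT libraries. Rescaled without genes with a run of A or T, library 9 (131 TPM) lay above library 10 (128 TPM), and the groups also overlapped when centred. The share of all genes separated in this way was not counted. Saa3 differed by 0.70 in PT (95% interval -2.09 to 3.48) and by 1.27 in BM (-1.52 to 4.05), intervals that hold differences of more than 2-fold in either direction. In BM the differences of Hp, C3 and Cfp were -0.06, 0.33 and -0.35, each with an adjusted p of at least 0.873. The PT change differed between genotypes by 1.22 for Hp (95% interval -0.38 to 2.83, adjusted p = 0.399), by -1.15 for Cfp (-3.06 to 0.75), by -0.57 for Saa3 (-4.51 to 3.37) and by 0.06 for C3 (-1.48 to 1.61).

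Whether the 4 measured genes varied together was described across the 12 libraries, which share site, genotype and scaling. Hp and C3 followed each other most closely (Pearson r = 0.73), while Saa3 ran against Cfp (-0.67), Hp (-0.54) and C3 (-0.35). Cfp was hardly related to Hp (0.06) or C3 (-0.24). The genes most like Saa3 in all 12 libraries were Gbp7, an interferon-induced GTPase (r = 0.93), Ccl2, the monocyte-attracting chemokine (0.92), and Sgpl1, the sphingosine-1-phosphate lyase (0.91). Those most like Hp were Slc25a24 (0.95), a mitochondrial carrier, Capns1 (0.93), the small calpain subunit, and Gm13394 (0.92). Those most like C3 were Mtmr3 (0.93), Plagl2 (0.91) and Inhba (0.88), and those most like Cfp were Emb (0.93), Lef1 (0.91) and Opa3 (0.91).

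**Figure D4:**
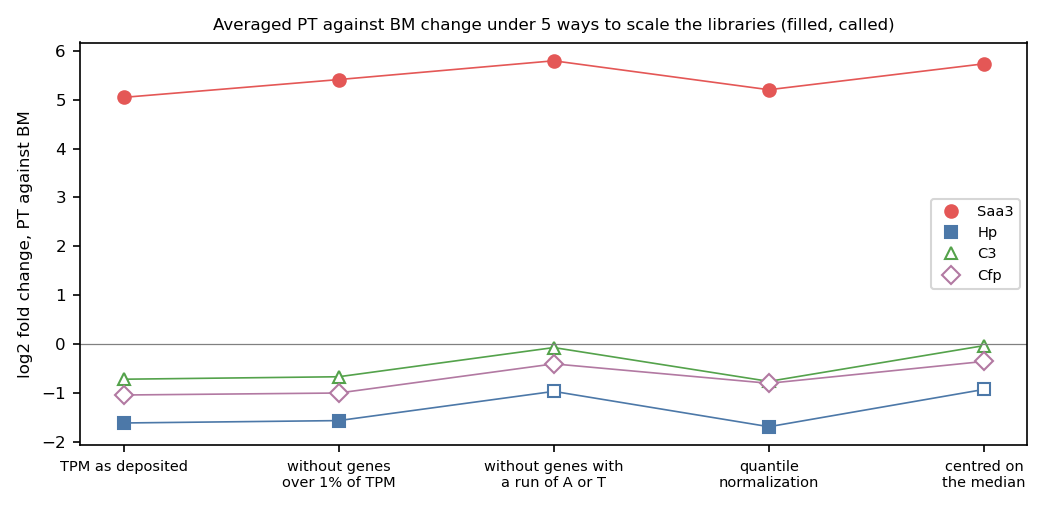
Averaged PT against BM change of Saa3, Hp, C3 and Cfp, as the log2 fold change on the vertical axis, under 5 ways to scale the libraries on the horizontal axis. Filled symbols are calls. Saa3 is called under all 5, between 5.05 and 5.79, and Hp under 3 of 5, while C3 and Cfp lie between -1.04 and -0.03 and are never called.

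Other acute phase genes were called in both directions. Of 29 acute phase reactants beside the 5 genes, 16 were tested, with a median averaged change of -0.47 beside -0.40 for all genes tested. Averaged over genotypes 3 were called higher and 3 lower, where 5.13% and 14.1% of all genes tested were. Il1rn, which encodes the interleukin-1 receptor antagonist, rose by 4.46 (adjusted p = 1.39e-05), from 137 to 498 TPM in BM WT to 3084 to 4055 TPM in PT WT. Cd14, the co-receptor for lipopolysaccharide, rose by 3.45 (adjusted p = 0.00105), and so did the metallothionein gene Mt2, by 3.302 (adjusted p = 0.0262). Orm1, which encodes alpha-1-acid glycoprotein, was called lower (adjusted p = 9.80e-05). It stood at 24.5 to 171 TPM in BM WT and at 1.39 to 9.35 TPM in PT WT, and was listed at 0 in all 3 PT MRP8-Bcl2 libraries, so that no averaged fold is given. Lbp, the lipopolysaccharide-binding protein, fell by 3.09 (adjusted p = 0.00121), though it was not called in WT alone (adjusted p = 0.251). These 6 calls, Lcn2 included, held under all 5 scalings. The 12 reactants listed at 0 throughout were Saa1, Saa2, Apcs, the fibrinogen genes Fga, Fgb and Fgg, Serpina3n, Serpina1a, Itih3, Hpx, Alb and Ttr. Of the 6 liver markers, 5 were at 0 in every library and the sum of the list never passed 0.254 TPM, so the plasma protein genes that mark hepatocytes were not detectable here. Of the 31 genes that the deposited annotation assigns to the acute-phase response, 21 were tested, and 2 were called higher and 4 lower, Saa3 and Hp being among them. The call that no other list held was that of Plscr1, the phospholipid scramblase (-3.20, adjusted p = 0.00124).

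Among 23 soluble complement components, 11 were tested, with a median of 0.38 beside -0.40 for all genes tested. In the averaged comparison 2 were called, 1 higher and 1 lower, where 5.13% and 14.1% of all genes tested were. C4b, a component of the classical and lectin pathways, was called higher (adjusted p = 0.0135). It stood at 9.58, 17.1 and 1.51 TPM in PT WT and at 0 in all 3 BM WT libraries. Fcnb, the ficolin stored in neutrophil granules that starts the lectin pathway, fell by 5.92 (adjusted p = 0.000288), from 20.7 to 446 TPM in BM WT to 0 to 1.39 TPM in PT WT. C1ra, a protease of the classical pathway, was called lower in PT of MRP8-Bcl2 (-2.22, adjusted p = 0.0201), at levels of at most 4.53 TPM, and not in the average (adjusted p = 0.0973). The components C7, C8b, C9, Cfd, Masp1, Mbl1 and Mbl2 were listed at 0 throughout, the last steps of the terminal pathway, the protease factor D of the alternative pathway and the lectins among them. These were 7 of the 23, beside 10382 of 28987 genes in the table. Of the 33 genes annotated to complement activation, 20 were tested, and 1 was called higher and 2 lower. The third call was C1rl, a C1r-like protease (-2.54, adjusted p = 0.00813).

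Of 9 complement receptors, all tested, 4 were called higher and none lower averaged over genotypes, where 5.13% and 14.1% of all genes were called, and the median was 1.65 beside -0.40 for all genes tested. In WT alone 1 was called higher, where 1.59% of all genes tested were. That became 0 when centred or rescaled without genes over 1% of TPM. In MRP8-Bcl2 alone 2 were called higher, where 2.31% of all genes tested were. Itgax, the alpha chain of complement receptor 4, rose by 3.45 (adjusted p = 0.00364), with 313 TPM in library 12 and 28.1 and 40.1 TPM in the other PT WT libraries. C5ar1, the C5a receptor that draws neutrophils, rose by 1.67 (adjusted p = 0.0238), from 144 to 447 TPM in BM WT to 469 to 922 TPM in PT WT. C5ar2, the second C5a receptor, rose by 1.82 (adjusted p = 0.0112), and Vsig4, a C3b receptor of macrophages, was called higher (adjusted p = 0.0214), from 0 in all BM WT libraries to at least 2.37 TPM in every PT WT library. Of 14 complement regulators, 9 were tested and 1 was called: Cd46, a cofactor for cleavage of C3b, rose by 1.68 (adjusted p = 0.0198). Cfi, C4bp, Vtn and Cpn1 were listed at 0 throughout.

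**Figure D5:**
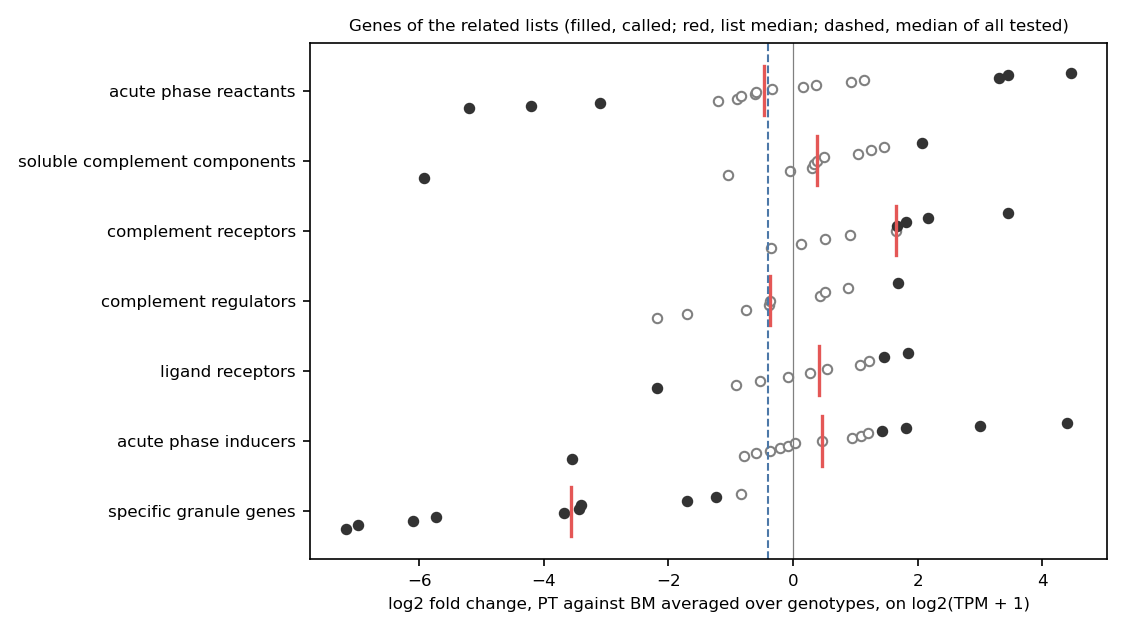
Averaged PT against BM change of each tested gene in 7 related lists, as the log2 fold change on the horizontal axis. Filled points are calls, the red bar is the median of a list and the dashed line the median of all genes tested, -0.40. The complement receptors have a median of 1.65 and the specific granule genes one of -3.56.

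Receptors for the products of the 5 genes and genes that drive the acute phase response were listed too. Of 10 ligand receptors, 2 were called higher and 1 lower averaged over genotypes, where 5.13% and 14.1% of all genes tested were. Tlr4, a receptor reported to respond to serum amyloid A3, rose by 1.84 (adjusted p = 0.00140), and the inhibitory Fc receptor gene Fcgr2b by 1.47 (adjusted p = 0.0197). Scarb1, a lipoprotein receptor that also binds serum amyloid A, fell by 2.18 (adjusted p = 0.0272), a call lost under 3 of 5 scalings. Of 15 inducers and their signalling genes tested, 4 were called higher and 1 lower, beside the same shares of all genes. Il1b rose by 4.39 (adjusted p = 0.000288), Socs3, a feedback inhibitor of STAT3 signalling, by 3.01 (adjusted p = 0.00124), Cebpb, an acute phase transcription factor, by 1.81 (adjusted p = 0.00966) and Tnf by 1.43 (adjusted p = 0.0227). Cebpe, which drives specific granule genes in marrow precursors, fell by 3.55 (adjusted p = 0.00452). Osmr was listed at 0 throughout and Il6 did not pass the filter.

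Markers of other cells in the sort were summed beside these genes. The 12 macrophage markers summed to 180 to 200 TPM in PT WT and 125 to 207 TPM in BM WT, and to 51.2 to 247 TPM in PT MRP8-Bcl2 and 185 to 624 TPM in BM MRP8-Bcl2. Without Fn1 they summed to 109, 125 and 112 TPM in PT WT and to 127, 35.4 and 17.8 TPM in BM WT. In MRP8-Bcl2 these sums were 168, 42.5 and 85.1 TPM in PT and 26.3, 194 and 52.3 TPM in BM. The median change of the 10 markers tested was 1.44 in WT and 0.04 in MRP8-Bcl2, beside 0.22 and -1.02 for all genes tested. The 6 monocyte markers summed to 57.2 to 127 TPM in PT against 439 to 2057 TPM in BM. Ly6c2, with a mean of 599 TPM in BM WT, fell by 3.95 (adjusted p = 4.26e-05). In WT 1 of the 6 was called lower (median -0.38), and in MRP8-Bcl2 4 were (median -2.96), beside 1.22% and 19.1% of all genes tested. By mean, Klf4 and Ms4a4c were higher in PT WT (10.9 and 17.6 TPM) than in BM WT (4.48 and 12.9 TPM). Ly6c2, Ccr2, F13a1 and Cx3cr1 were lower. The 12 mesothelial and fibroblast markers never summed to more than 8.19 TPM, and Msln, Upk3b, Upk1b, Krt8 and Col3a1 were at 0 throughout. The 8 mast cell and eosinophil markers summed to 14.7 to 80.1 TPM in BM, and 4 of them were called higher in PT, Cma1 among them (adjusted p = 0.00523). Of all genes tested, 5.13% were called higher averaged over genotypes.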

How the data were processed

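RNA of 12 sorted cell samples was amplified, sequenced as paired-end reads and analysed by the authors with AltAnalyze at default settings. The deposited table gives each gene of each library as log2(TPM + 1), with no further normalization. The genome build and the version are not given in the sources used here. The deposited group averages in TPM equal the library means. Columns with the authors' own fold changes and p-values were not used, nor were 2 columns of per-sample values that name no sample. The lengths in that file served to estimate depth. Library columns were placed in groups by their names in the deposited marker table. Genes of at least 1 TPM in at least 3 libraries (13456) entered limma 3.58.1, run in R 4.3.3 (1 fit of 4 groups, eBayes with trend, 8 residual degrees of freedom). Calls required an adjusted p (Benjamini-Hochberg) under 0.05 together with a 2-fold change. For the difference between genotypes the adjusted p alone counted.

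In simulated data for PT against BM in WT with 200 changed genes among 13456, 64 of 109 genes changed by 4 on the log2 scale and 3 of 91 changed by 2 were called, so an uncalled gene can still differ. Reads were estimated for 9693 genes with 1 transcript from the step between low TPM values. Of these values, 81.6% to 87.8% lay within 0.15 of a whole read, where 30% would by chance. They came to 178604 to 989049 reads a library, and the largest error on simulated data was 3.15%. Intervals and floors (3 reads) cover counting error only.

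All 5 genes were described in every library. Of each related list, the genes called in either genotype were named, or the 4 with the largest averaged change where there were more, with those at 0 throughout and the 3 genes most correlated with each member. Lbp, Mt2, C5ar2, Vsig4, Fcgr2b, Cebpb, Olfm4 and Slpi were named after their values were seen. The members, lists, ratios and tests were chosen with earlier results of these data known. Motifs were searched in RefSeq promoters (GRCm38.p6), and gene positions are from GENCODE (GRCm38).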

Additional observations from a re-analysis of the deposited data

How the results depend on the processing

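No paired analysis was possible because the library columns carry no mouse or replicate number. The cause of a changed call was not tested. In WT, 2 of the 4 tested members were called, and 0 or 1 under 8 other settings. Saa3 in WT was no longer called with a pseudocount of 0.1 (5.60), without the filter or without the trend (both 5.33), centred on the median (5.12), rescaled without genes over 1% of TPM (5.27), or without the PT library whose Bcl2 lay in the WT range (5.33). Hp in WT was no longer called without the filter, without the trend or in a fit of only the groups compared (each -2.22), centred (-2.44), or rescaled without genes with a run of A or T (-1.68). In MRP8-Bcl2, the 1 call, Saa3, was lost (0 called) without the filter and in a fit of only the groups compared (both 4.76). Averaged over genotypes, 1 in place of 2 was called when centred or rescaled without genes with a run of A or T, Hp then being at -0.92 and -0.97.

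Values that were not called and changed sign were, when centred, Hp (0.59) and C3 (0.91) in MRP8-Bcl2, the difference between genotypes of Saa3 (1.23) and Cfp (0.65), and C3 between genotypes in BM (-0.41). Without genes with a run of A or T, C3 in MRP8-Bcl2 (0.064) and Cfp in WT (0.079) did so. The difference between genotypes of Saa3 became 0.29 with a pseudocount of 0.1 and 0.28 without genes over 1% of TPM.

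Leaving out each library in turn gave 0 to 2 members called in WT, 0 or 1 in MRP8-Bcl2 and 2 in the average. Saa3 ranged from 4.53 to 6.55 in WT and from 2.96 to 6.30 in MRP8-Bcl2, and Hp from -2.50 to -1.86 in WT and from -1.56 to -0.63 in MRP8-Bcl2. The difference of the PT change between genotypes ranged from -2.37 to 0.97 for Saa3 and from -0.36 to 0.45 for C3. Between genotypes in BM, Saa3 ranged from -0.28 to 3.07, Hp from -0.19 to 0.14 and Cfp from -0.69 to 0.21. In PT, Saa3 ranged from -0.52 to 1.50 and C3 from -0.039 to 0.77. Low depth limits Saa3 in BM, which rests on 0 to 24 estimated reads a library.

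Over all genes tested, PT against BM in WT gave 214 higher and 164 lower, 517 and 116 without genes with a run of A or T, 112 and 197 when centred, 101 and 78 in a fit of only the groups compared, and 46 to 301 and 50 to 217 without 1 library. In MRP8-Bcl2 it gave 311 higher and 2567 lower, 552 and 1115 without genes with a run of A or T, 678 and 779 after quantile normalization, 1636 and 467 when centred, and 147 to 315 and 1042 to 2759 without 1 library (147 and 1042 without library 3, 170 and 1341 without library 2, 199 higher without library 7, 1607 lower without library 8). The average gave 690 higher and 1891 lower, and 508 to 682 and 1242 to 2087 without 1 library, the lowest being 1242 lower without library 10 and 1255 without library 4. The median averaged change of all genes was -0.40, and 0.03 without genes with a run of A or T, 0.03 after quantile normalization and 0.29 when centred. The rescaling without genes with a run of A or T was chosen after seeing the data, as was a fit of the average without libraries 7 and 12, in which Saa3 and Hp stayed called.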
